A study of Mus musculus with 15 samples.

Results

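The mesenchyme of the developing parotid gland (PG) was compared with that of the submandibular gland (SMG) in mouse embryos of the ICR strain. RNA-seq libraries of PG mesenchyme at embryonic day 12 (n = 4) were set against libraries of SMG mesenchyme at embryonic day 11.5 (n = 4), which are 8 of the 15 libraries of the series. The other 7 libraries are the epithelium of the same glands (SMG n = 4, PG n = 3) and served as the reference for epithelial RNA. The labels name no treatment and no altered allele. All genes of the count table entered except the spike-in rows, 48709 in all, of which 36295 had at least 1 count and 18940 passed the filter on low counts and were tested. The glands differ in position and in stage at once, so that gland and embryonic day cannot be told apart in any value given here. How the mesenchyme was parted from the epithelium is not given in the sources used here.

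Salivary glands grow from oral epithelium that buds into a condensed mesenchyme, most of which comes from cranial neural crest. In tissue recombination the mesenchyme sets much of the branching pattern of the epithelium, and it sends signals such as FGF10 to it. The SMG forms beneath the tongue on the lower jaw, whereas the PG forms at the back of the mouth near the jaw joint, beside the masseter muscle. Crest cells carry transcription factors that record their place along the jaw, and some genes of this kind are among the leading genes described below. The part of position in the differences was not tested.

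Total gene counts of the 8 libraries ran from 20561142 to 26006021, so that 1 read was worth a median of 0.042 CPM (the library-scaled count, with TMM factors). Libraries of a group had log2 CPM correlated at 0.981 to 0.994. In a principal component plot of the 8 libraries the glands lay at opposite ends of the first axis (78.8% of variance), and PG mesenchyme 1 lay apart from the other 7 on the second (8.68%). Of 40 epithelial markers, 35 were called higher in PG mesenchyme. Their level relative to the epithelium of the same gland gave an apparent epithelial share of 18.1%, 3.97%, 2.91% and 3.83% in PG mesenchyme 1 to 4. In SMG mesenchyme 1 to 4 the share was 0.402%, 0.355%, 0.152% and 0.101%. The 2 ranges did not overlap, and PG mesenchyme 1 held the most. Markers of mesenchyme were present throughout: the summed level of the 36 genes of that list was 16293 to 20664 CPM in PG and 12566 to 15234 CPM in SMG libraries. Xist, the RNA of the inactive X chromosome, was at 0.176 CPM in PG mesenchyme 1 and at 0.0862 CPM in SMG mesenchyme 3, and at 46.1 to 166 CPM in the other 6 libraries. Per the labels the replicates were independent biological ones. In bulk tissue, fewer cells of a type and less RNA per cell cannot be told apart.

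Large differences between the mesenchymes were common. At an adjusted p under 0.05 in edgeR's quasi-likelihood test, adjusted over every tested gene by Benjamini-Hochberg and used for each adjusted p below, 2892 genes were called higher in PG mesenchyme (15.3% of those tested) and 1786 were called lower (9.43%). With a log2 difference of at least 1 in size, 1610 were higher (8.5%) and 719 lower (3.8%). The median log2 difference over all genes tested was 0.02. For every gene list below, the shares of all genes to set beside its counts are 15.3% higher and 9.43% lower. To keep epithelial RNA out of the account, a gene called higher was set apart where the RNA expected from the apparent epithelial share came to at least 50% of its excess in PG mesenchyme. This rule took 369 of the 2892 genes and 232 of the 1610. Without PG mesenchyme 1 it took 141. Among the genes just inside the rule, 191 had an expected part of 50% to 75%, and 610 genes just outside had 25% to 50%. Of the 1378 genes that were higher by log2 1 or more and not set apart, 91.9% had no overlap between the 4 and 4 libraries, as had 88.6% of the 719 lower genes. Both sets were chosen for a difference between the same libraries, so a high share follows from the choice and nothing is read from it. The share over all genes tested was not worked out.

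**Figure D1:**
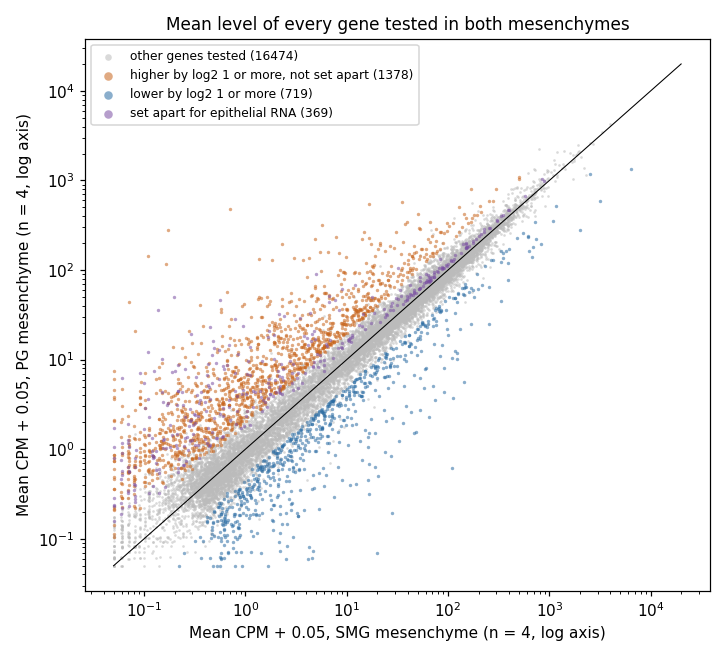
Mean CPM of each of the 18940 genes tested in SMG mesenchyme (x axis) and PG mesenchyme (y axis), both on log axes with 0.05 added; the line marks equal levels. The 1378 genes higher by log2 1 or more and not set apart lie above the line, the 719 lower genes lie below it, and the 369 genes set apart for epithelial RNA include many that lie close to the line at high levels.

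The transcription factor gene Pou3f3 and its neighbour Pantr1 led the genes higher in PG mesenchyme. Pou3f3 is a POU-domain factor known from upper jaw and kidney development. Pantr1 is a long noncoding RNA transcribed away from it. Pou3f3 was at 67.7, 167, 166 and 167 CPM in PG mesenchyme 1 to 4 and at 0.0419, 0.0384, 0 and 0.161 CPM in SMG mesenchyme 1 to 4. Every PG library was far above every SMG library, with PG mesenchyme 1 the lowest of its group, and the log2 difference was 11.07 ± 0.75 (SE, adjusted p = 5.65e-07). It was 12.11 without SMG mesenchyme 4. Pantr1 was at 89.6, 368, 313 and 353 CPM in PG and at 0, 0.154, 0.0862 and 0.242 CPM in SMG libraries. Its groups did not overlap and its log2 difference was 11.11 ± 0.72 (adjusted p = 5.19e-07). The genes stand head to head on chromosome 1 of GRCm38, Pantr1 on the minus strand from 42590782 to 42694842 and Pou3f3 on the plus strand from 42695768 to 42703176. Between 40805601 and 42744791 of that chromosome, 8 genes were all higher in PG mesenchyme by log2 1 or more. They are successive among genes tested and not set apart.

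Promoters are shown for Pou3f3, Tbx18, Shox2 and Nr5a2, transcription factor genes without overlap between the glands that have a start in the RefSeq promoter table (GRCm38.p6). They were chosen after their values were seen, to show what lies in front of a transcription factor gene that was higher in either gland. Each run is the 250 bases before the start, 5′ to 3′ on the gene's own strand. Capitals mark matches, on either strand, to 6 short motifs that do not overlap here. The homeodomain core was searched as TAATTA and an E-box of bHLH factors as CATCTG. The T-box element was searched as AGGTGTGA and the site of zinc-finger factors as GATAAG. The core promoter elements were the TATA box, written TATAAA, and the CCAAT box.
Pou3f3, chr1:42695518-42695767, plus strand: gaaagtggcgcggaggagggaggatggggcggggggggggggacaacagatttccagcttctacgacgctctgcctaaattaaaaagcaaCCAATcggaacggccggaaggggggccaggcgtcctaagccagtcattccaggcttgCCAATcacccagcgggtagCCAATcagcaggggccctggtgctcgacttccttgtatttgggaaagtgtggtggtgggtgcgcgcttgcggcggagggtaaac
Tbx18, chr9:87731261-87731510, minus strand: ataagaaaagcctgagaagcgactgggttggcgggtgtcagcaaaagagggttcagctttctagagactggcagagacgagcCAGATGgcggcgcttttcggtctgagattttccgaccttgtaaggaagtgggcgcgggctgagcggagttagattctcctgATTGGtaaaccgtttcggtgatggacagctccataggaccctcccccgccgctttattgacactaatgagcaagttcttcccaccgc
Shox2, chr3:66981772-66982021, minus strand: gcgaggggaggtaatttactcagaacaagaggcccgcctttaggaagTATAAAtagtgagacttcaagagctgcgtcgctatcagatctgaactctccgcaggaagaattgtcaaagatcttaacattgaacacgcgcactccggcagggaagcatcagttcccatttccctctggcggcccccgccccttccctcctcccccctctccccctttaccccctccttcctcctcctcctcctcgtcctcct
Nr5a2, chr1:136960449-136960698, minus strand: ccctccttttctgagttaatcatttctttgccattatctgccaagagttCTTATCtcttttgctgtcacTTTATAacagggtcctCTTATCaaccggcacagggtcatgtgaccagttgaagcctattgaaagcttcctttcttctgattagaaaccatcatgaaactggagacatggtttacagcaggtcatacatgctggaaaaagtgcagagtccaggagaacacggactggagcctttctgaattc
The Pou3f3 window held CCAAT at 3 places, while the Shox2 window held TATAAA at 1 place and no other motif of the 6. The Tbx18 window held an E-box and CCAAT, each on the opposite strand. The window of Nr5a2, which was higher in SMG mesenchyme, held GATAAG at 2 places and TATAAA at 1, all on the opposite strand. GATAAG was in 5.14% of the windows of genes higher by log2 1 or more, in 5.83% of those of lower genes, in 4.78% of those of all genes tested and in 6.55% of all promoters of the table. In the same order, TATAAA was in 10.6%, 11%, 6.88% and 12.4%, TAATTA in 3.84%, 4.7%, 2.65% and 4.84%, and CATCTG in 12.5%, 12.8%, 10.5% and 14.4%. For each of these motifs the shares in both called sets lay above that of all genes tested and below that of all promoters. CCAAT was in 30%, 32.6%, 34.5% and 33.8%, and AGGTGTGA in 0.245%, 0.972%, 0.749% and 1.12%. A symbol match was found for 915 of the 1378 higher genes and 462 of the 719 lower genes. These are descriptions of letters in a window, not of bound sites.

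The other leading genes of PG mesenchyme were of several kinds. Cxcl14, which encodes a secreted chemokine, was at 381, 419, 496 and 612 CPM in PG mesenchyme 1 to 4 and at 0.67, 0.538, 0.905 and 0.484 CPM in SMG mesenchyme 1 to 4. The PG libraries were all high and alike, and the log2 difference was 9.52 ± 0.74 (adjusted p = 2.16e-06). Msx1, a homeobox gene of jaw and tooth mesenchyme, was at 102, 143, 182 and 357 CPM in PG and at 1.93, 2.11, 2.85 and 2.02 CPM in SMG libraries. Its groups were apart, with a wide spread within PG, and its log2 difference was 6.46 ± 0.88 (adjusted p = 0.000183). Cdh8, a classical type II cadherin, was at 22.2, 25.8, 19.6 and 16.1 CPM in PG libraries and drew only 3 counts in the 4 SMG libraries together. The CPM ratio was 691, with a 95% counting interval (exact Poisson, counting error only) of 236 to 3350. Where a pair of means is given below without naming the gland, the first is PG mesenchyme unless SMG was named first in the sentence. Cbln4, a secreted synaptic organiser, reached 41.2 ± 13.5 CPM (SD, n = 4) in PG mesenchyme against 0.306 ± 0.132 in SMG. Chodl, a C-type lectin-like membrane protein, was at 133 ± 36.7 against 1.32 ± 0.926 CPM, and the calcium channel subunit Cacna2d3 at 56.9 ± 11.8 against 0.614 ± 0.0657 CPM. The desmosomal cadherin Dsc3 was at 21.0 ± 3.84 against 0.228 ± 0.116 CPM, and epithelial RNA was expected to give 18.3% of its excess. Acta1, skeletal muscle actin, was at 131 ± 42.1 against 1.79 ± 1.19 CPM.

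Pax1 and Hoxd1 were high in 3 of the 4 PG libraries and low in PG mesenchyme 1. Pax1 is a paired-box factor of the pharyngeal pouches and the axial skeleton, and Hoxd1 is the first gene of the HoxD cluster. Pax1 was at 2.76, 120, 130 and 219 CPM in PG mesenchyme 1 to 4 and at 0.251, 0.115, 0.0862 and 0 CPM in SMG mesenchyme 1 to 4. All PG libraries were above all SMG libraries, but PG mesenchyme 1 was close to them. The log2 difference was 9.97 ± 1.47 (adjusted p = 0.00034), 10.38 without PG mesenchyme 1 and 10.67 without SMG mesenchyme 1. Hoxd1 was at 0.176, 30.6, 53.5 and 92.9 CPM in PG libraries and drew 2 counts in the SMG libraries together, a CPM ratio of 2100 (95% counting interval 581 to 17300). Its log2 difference was 10.77 ± 2.12 (adjusted p = 0.00484), 10.12 without PG mesenchyme 4 and 11.18 without PG mesenchyme 1. Sim1, a basic helix-loop-helix PAS factor, was at 0.263, 8.94, 7.16 and 7.6 CPM in PG libraries with no count in SMG, which makes it at least 198-fold higher (floor of 3 counts over the group). Col8a1, a short-chain collagen, was likewise at 11.1 CPM in PG mesenchyme 1 and at 67.8 to 93.2 CPM in the other 3 PG libraries, against 4.83 ± 3.15 CPM in SMG. Among the 384 higher genes with a mean of at least 20 CPM in PG mesenchyme, 4 lay more than 4-fold below the other PG libraries in PG mesenchyme 1, and none did so in any other PG library.

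**Figure D2:**
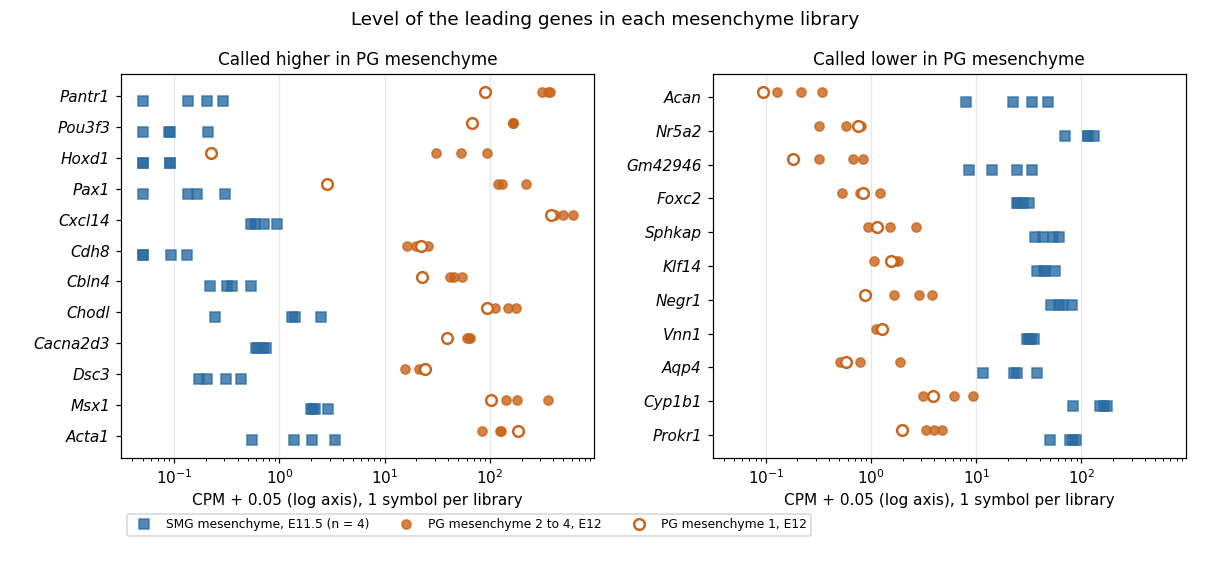
CPM with 0.05 added (log axis) of the leading genes described here, 12 higher and 11 lower in PG mesenchyme, with 1 symbol per library: squares for SMG mesenchyme, filled circles for PG mesenchyme 2 to 4 and an open circle for PG mesenchyme 1. The groups do not overlap for any of the 23 genes, which the choice of genes required. The open circle lies near the SMG libraries for Hoxd1 (0.176 CPM) and Pax1 (2.76 CPM).

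SMG mesenchyme was marked by Nr5a2, Foxc2 and Acan. Nr5a2 is an orphan nuclear receptor also known as LRH-1, and it was at 116, 115, 133 and 70.1 CPM in SMG mesenchyme 1 to 4. In PG mesenchyme 1 to 4 it was at 0.702, 0.272, 0.75 and 0.532 CPM. Every SMG library was far above every PG library, and the log2 difference was -7.59 ± 0.49 (adjusted p = 2.27e-07). The forkhead gene Foxc2 was at 24.9, 31.8, 27.5 and 24.2 CPM in SMG and at 0.79, 0.738, 1.17 and 0.484 CPM in PG libraries (log2 difference -5.07 ± 0.53, adjusted p = 7.4e-06). Acan, the large cartilage proteoglycan, was at 22.5, 34.1, 48.4 and 8.02 CPM in SMG and at 0.0439, 0.0777, 0.167 and 0.29 CPM in PG libraries, which did not overlap although SMG mesenchyme 4 was low (log2 difference -7.60 ± 0.67, adjusted p = 1.99e-06). Other leading genes of SMG mesenchyme were Sphkap, Klf14, Negr1, Gm42946, Vnn1, Aqp4, Cyp1b1 and Prokr1. Vnn1, a pantetheinase, was at 32.4 ± 2.04 CPM in SMG against 1.18 ± 0.0829 in PG mesenchyme, and Cyp1b1, an oxidase that can act on retinoids, was at 142 ± 40.5 against 5.57 ± 2.78 CPM. The water channel Aqp4 had a log2 difference of -4.77, and -5.37 without PG mesenchyme 4. Gm42946 is a predicted gene without an assigned function, and Prokr1 is a prokineticin receptor at 75 ± 17 CPM in SMG against 3.46 ± 1.17 in PG mesenchyme.

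Most of the Iroquois, sine oculis, EYA and DACH genes, which pattern the head and the sensory placodes, were higher in PG mesenchyme. Of 18 tested, 13 were called higher (1 of them set apart) and none lower, with a median log2 difference of 2.59, where 15.3% of all genes were called higher and the median of all was 0.02. Irx5 was at 16.9, 38.7, 34.1 and 58.0 CPM in PG libraries and at 0.251, 0.423, 0.474 and 0.927 CPM in SMG libraries, with no overlap (log2 difference 6.14 ± 0.51, adjusted p = 1.99e-06). Irx3 was at 30.2 ± 16.3 against 1.08 ± 0.327 CPM, and epithelial RNA was expected to give 20.8% of its excess. For Irx1 the difference was 6.41 ± 1.01, and 5.61 without PG mesenchyme 4, its highest library. Six2, of the sine oculis family, was at 92.8 ± 40.3 against 11.7 ± 5.57 CPM. Neighbours moved alike here: Irx1, Irx2 and Irx4 on chromosome 13 were all higher by log2 1 or more. Among genes tested and not set apart, 1 other gene lies between them, and it was higher too.

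Single T-box, LIM and related homeobox genes differed by a wide margin, while most members of the T-box and LIM lists did not pass. Tbx18, a T-box gene of limb, somite and mural mesenchyme, was at 499, 227, 303 and 253 CPM in PG and at 7.33, 3.03, 1.81 and 10.5 CPM in SMG libraries. Its groups were apart, and the log2 difference was 5.82 ± 0.53 (adjusted p = 6.19e-06). Tbx15 was at 220 ± 67.1 against 4.85 ± 2.89 CPM. Tbx2 differed less, at 262 ± 53.2 against 92.2 ± 20.8 CPM (log2 difference 1.51 ± 0.40, adjusted p = 0.0136). Of 13 T-box genes tested, 4 were called higher, 1 lower and 8 neither (median 0.11), where 15.3% of all genes were called higher and 9.43% lower. Shox2, the short-stature homeobox gene of jaw joint and palate, was at 201, 200, 261 and 217 CPM in PG and at 11.9, 9.37, 23.3 and 12 CPM in SMG libraries, again with no overlap (log2 difference 3.96 ± 0.44, adjusted p = 3.34e-05). Among the genes with values in the text, 30 share exon bases with a gene on the other strand, and the library kit does not mark strand, so their reads and those of that gene cannot be told apart. The transcription factor genes among them are Pax1, Tbx18, Shox2, Hand2, Foxl2, Irx3, Ebf3, Rarb, Runx2 and Plagl1. The signalling and guidance genes are Fgfr1, Ctnnb1, Gdf5, Gas1, Scube3, Dll1, Nrg1, Pdgfc, Unc5c and Epha6. The others are Cdh8, Col6a6, Lox, Des, Ccne2, Cdkn1c, Mest, Lss, Krt5 and Xist. Lhx8, a LIM homeobox gene of oral mesenchyme, was at 323 ± 47.8 against 37.7 ± 2.02 CPM. Its relative Lhx6 was at 104 ± 26.7 against 34.9 ± 5.21 CPM (adjusted p = 0.0097), a call that DESeq2 did not make (adjusted p = 0.0623). Lhx2 was at 8.88 ± 1.96 against 0.173 ± 0.123 CPM. In the LIM list 4 of 13 genes were called higher (1 set apart), none lower and 9 neither (median 0.13). The mesodermal and crest homeobox pair Meox2 and Meox1 went opposite ways: Meox2 was at 160 ± 33.8 against 5.37 ± 1.39 CPM, and Meox1 at 6.97 ± 1.71 against 32.0 ± 6.88 CPM. Tcf21, a factor of branching organ stroma, was at 8.06 ± 0.78 against 1.05 ± 0.727 CPM. Ebf3 was the other way, at 6.21 ± 0.808 against 52.3 ± 12.2 CPM.

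Genes of the lower end of the jaw, which depend on endothelin and HAND2 in the branchial arches, were mixed. Of 24 tested, 6 were called higher (1 set apart) and 8 lower, with a median log2 difference of -0.09. Msx1, given above, was among the 6 called higher (log2 difference 6.46). Gsc, a homeobox gene of the jaw hinge region, was at 111, 145, 83.3 and 127 CPM in SMG and at 3.12, 17.2, 13.7 and 15.8 CPM in PG libraries. The groups were apart with PG mesenchyme 1 the lowest, and the log2 difference was -3.23 ± 0.58 (adjusted p = 0.00126). Alx4 was at 131 ± 39.4 CPM in SMG against 21.9 ± 10.9 in PG mesenchyme. Hand2 was at 24.3, 21.2, 18.4 and 31.9 CPM in SMG and at 0.746, 10.3, 5.46 and 8.91 CPM in PG libraries, which did not overlap. Its log2 difference of -1.92 ± 0.64 passed narrowly (adjusted p = 0.0437). It also passed in a fit of the 8 mesenchyme libraries alone. The call was lost without any 1 of 6 libraries, PG mesenchyme 3 or 4 or any SMG library (adjusted p = 0.0591 to 0.0986), with DESeq2 (0.089) and without the low-count filter (0.118). With the epithelial marker level as a covariate, the calls of Gsc and Alx4 were lost as well (log2 differences -1.19 and -1.07, adjusted p = 0.293 and 0.436). That covariate separates the glands by itself, so nothing is read from these losses. Gsc and Alx4 were at 0.752 CPM or less in the epithelium of both glands. Genes assigned to the upper jaw gave 12 of 26 called higher and 5 lower, with a median of 0.69. Barx1, a homeobox gene of jaw mesenchyme, was among the abundant factors that did not pass, at 386 ± 62.7 CPM in PG and 619 ± 79.4 in SMG mesenchyme (adjusted p = 0.397). It passed in a fit of the 8 mesenchyme libraries alone (adjusted p = 0.00292) and without PG mesenchyme 1 and PG epithelium 2 (0.03).

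Among 83 other mesenchymal transcription factors 30 were called higher (5 set apart) and 16 lower, with a median of 0.44. Of 34 forkhead genes 9 were called lower and 5 higher (1 set apart), with a median of -0.005. The shares of all genes were 9.43% lower and 15.3% higher. Foxp2 was at 94.6 ± 5.73 CPM in SMG against 35.6 ± 8.17 in PG mesenchyme, and Foxl2 was higher in PG at 5.18 ± 1.69 against 0.624 ± 0.255 CPM. Of 39 Hox genes only 8 had enough counts to be tested; first-arch crest is known as Hox-free. Of these, 3 were called higher and 1 lower. The summed Hox level was 1.89 to 117 CPM in PG libraries and 1.84 to 5.97 CPM in SMG libraries, so the ranges overlapped. Hoxd8 was at 0.746, 10.6, 8.58 and 19.4 CPM in PG and at 0.545, 0.192, 0.474 and 1.25 CPM in SMG libraries, with PG mesenchyme 1 inside the SMG range. Its log2 difference was 3.99 (adjusted p = 0.00499), and 4.60 without SMG mesenchyme 4. On chromosome 2, Hoxd9, Hoxd3os1, Hoxd8, Haglr, Gm14424 and Hoxd1 were all higher by log2 1 or more. These 6 are successive only among genes tested and not set apart, and other genes of the cluster lie between them.

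**Figure D3:**
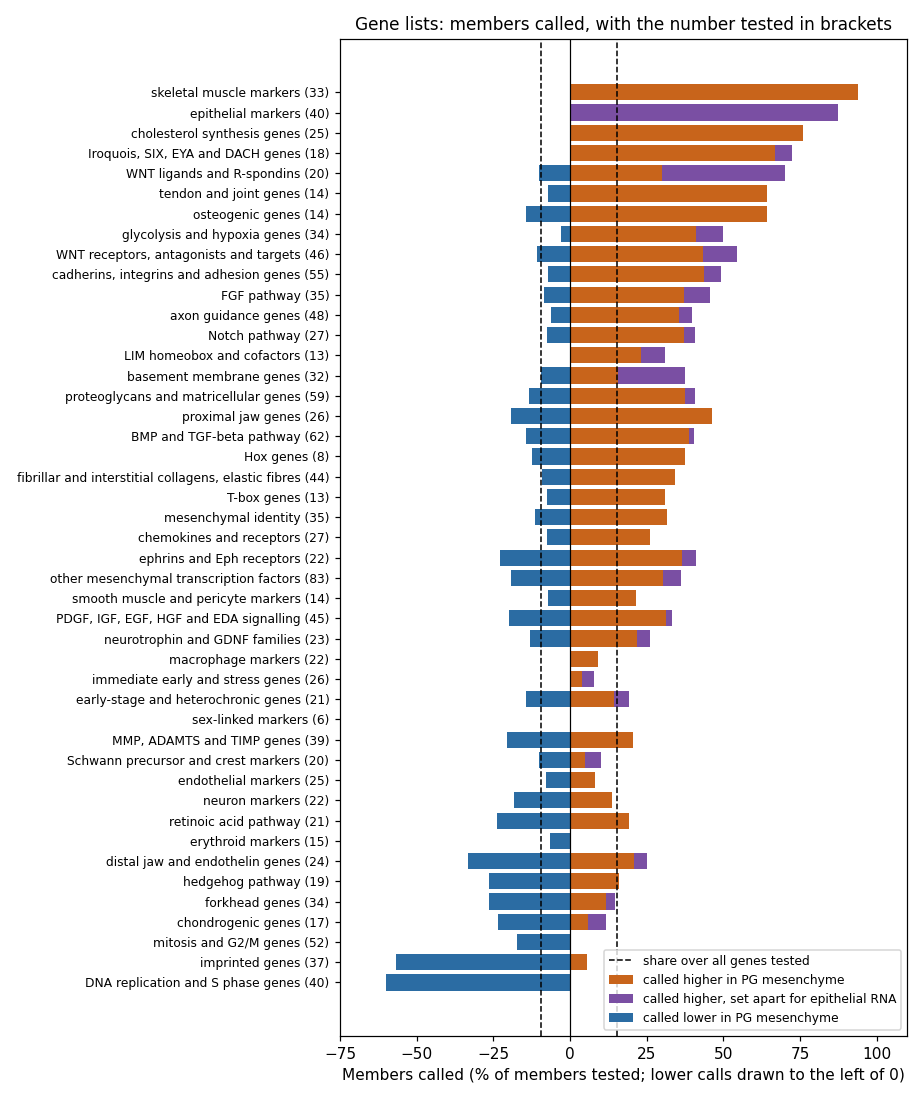
Share of the tested members of each gene list that was called higher (right of 0) or lower (left of 0) in PG mesenchyme, in percent, with the part set apart for epithelial RNA in its own colour and dashed lines at the shares over all genes tested (15.3% and 9.43%). Skeletal muscle markers (31 of 33 higher) stand at the top, and DNA replication genes (24 of 40 lower) and imprinted genes (21 of 37 lower) at the bottom.

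Among the signals, FGF pathway genes carry the main known dialogue between salivary mesenchyme and bud. Of 35 tested, 16 were called higher (3 set apart) and 3 lower, with a median log2 difference of 0.87. Without PG mesenchyme 1 the higher count was 12. The receptor gene Fgfr4, also expressed by muscle precursors, was at 15.5 ± 5.32 against 2.11 ± 1.12 CPM. The ETS factors downstream of FGF differed in direction: Etv1 was at 47.6, 37.5, 29.8 and 28.5 CPM in PG and at 9.80, 10.4, 10.4 and 9.39 CPM in SMG libraries, whereas Etv4 was at 30.8, 18.4, 18.5 and 20.4 CPM in PG and at 77.2, 112, 121 and 76.6 CPM in SMG libraries. Neither gene overlapped between the groups (log2 differences 1.84 ± 0.20 and -2.13 ± 0.20, adjusted p = 8.5e-06 and 3.04e-06). The ligand gene Fgf7 was at 31.4 ± 12.2 CPM in SMG against 8.49 ± 1.67 in PG mesenchyme. Fgfr1, the abundant mesenchymal receptor, did not pass (270 ± 28.6 in PG and 290 ± 51.1 CPM in SMG).

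WNT ligand genes were mostly higher in PG mesenchyme, but the set-apart rule took 8 of the 14 called higher among 20 tested. Wnt4 and Wnt6, both known from gland and surface epithelium, were among those 8, with 50.4% and 85.7% of their excess expected from epithelial RNA. Wnt2b and Wnt5b were the 2 called lower, Wnt2b at 5.97 ± 1.31 CPM in SMG against 0.341 ± 0.18 in PG mesenchyme and Wnt5b at 35.1 ± 1.41 against 23.1 ± 0.978 CPM. Among 46 receptors, antagonists and targets 25 were called higher (5 set apart) and 5 lower. The secreted antagonist genes went both ways. Wif1 was at 17.5 ± 6.09 CPM in PG against 1.26 ± 0.669 in SMG mesenchyme and Dkk1 at 18.6 ± 12.7 against 1.36 ± 0.607 CPM, with PG mesenchyme 1 the lowest PG library for both (9.48 and 4.04 CPM). Sfrp1 was at 629, 695, 816 and 613 CPM in SMG and at 218, 148, 193 and 172 CPM in PG libraries, with no overlap (log2 difference -1.91 ± 0.21, adjusted p = 1.63e-05). The receptor and target gene Lgr5 was at 254 ± 69.9 CPM in SMG against 65.1 ± 12.5 in PG mesenchyme. Ctnnb1, which encodes beta-catenin itself, did not pass (996 ± 73.7 in PG and 916 ± 36.3 CPM in SMG).

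In the BMP and TGF-beta pathway 25 of 62 genes were called higher (1 set apart) and 9 lower. The ligand gene Bmp3 was at 37.9, 48.7, 47.3 and 41.1 CPM in PG and at 2.22, 3.27, 1.68 and 3.51 CPM in SMG libraries, which did not overlap (log2 difference 4.03 ± 0.68, adjusted p = 0.000725). The BMP antagonist gene Nog was at 15.5 ± 8.01 against 1.85 ± 0.707 CPM, highest in PG mesenchyme 1 (27.6 CPM), and epithelial RNA was expected to give 31.1% of its excess. The joint ligand gene Gdf5 and the pseudoreceptor gene Bambi were higher in SMG mesenchyme, at 23.2 ± 5.65 against 2.67 ± 0.76 CPM and at 76.8 ± 14 against 24.3 ± 4.49 CPM.

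The hedgehog list gave 3 genes higher of 19, a share near the 15.3% of all genes, and 5 lower, where 9.43% of all genes were lower (median -0.08). The coreceptor gene Gas1 was at 594 ± 82.5 CPM in PG against 278 ± 56.2 in SMG mesenchyme, and the release factor gene Disp1 at 48.4 ± 4.40 against 24 ± 2.02 CPM. Scube3, which encodes a secreted protein of the SCUBE family, was lower in PG, at 14 ± 6.91 against 46.9 ± 13 CPM. In the Notch list 11 of 27 genes were called higher (1 set apart) and 2 lower. Dtx4, Hey2 and the ligand gene Dll1 were higher in PG mesenchyme, at 72.0 ± 4.17 against 15.4 ± 5.38 CPM, at 6.43 ± 2.26 against 0.377 ± 0.15 CPM and at 8.38 ± 1.98 against 2.02 ± 0.769 CPM. The genes called lower were Dlk1, at 277 ± 119 against 2012 ± 163 CPM, and the coactivator gene Maml2, at 28.1 ± 5.59 against 53.7 ± 10.1 CPM. The summed level of the Notch list was lower in PG mesenchyme, at 968 to 1390 CPM against 2459 to 2947 CPM in SMG libraries. Dlk1 alone made up most of that sum in SMG mesenchyme, so the sum mainly follows this 1 gene and not the list.

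Of 21 retinoic acid genes 5 were called lower in PG mesenchyme and 4 higher. Rarb, a receptor that retinoic acid induces, was at 353, 328, 308 and 346 CPM in SMG and at 61.1, 37.4, 44.3 and 39.5 CPM in PG libraries. The groups were tight and far apart (log2 difference -2.87 ± 0.16, adjusted p = 2.91e-08). Cyp26a1, which degrades retinoic acid, was at 28.1 ± 11.2 CPM in SMG against 2.19 ± 1.65 in PG mesenchyme, a log2 difference of -3.69 that became -4.35 without PG mesenchyme 1. Aldh1a2 and Rdh10, which make retinoic acid, were at 635 ± 168 and 118 ± 13.4 CPM in SMG mesenchyme. In PG mesenchyme 1 they were at 299.6 and 82.8 CPM, and in the other 3 PG libraries at 106 to 125 and 36.2 to 38.8 CPM. Aldh1a2 passed narrowly (adjusted p = 0.0395) and also passed in a fit of the 8 mesenchyme libraries alone. The call was lost without any 1 of 6 libraries, PG mesenchyme 2, 3 or 4 or SMG mesenchyme 1, 2 or 3 (0.0644 to 0.0995). It was also lost with DESeq2 (0.0743), without the low-count filter (0.0937), with the replicate block (0.0682) and after epithelial counts were subtracted (0.0689). Rxrg and the binding protein gene Crabp1 were higher in PG mesenchyme, at 23.8 ± 5.49 against 2.59 ± 0.718 CPM and at 185 ± 64.5 against 45.9 ± 8.64 CPM.

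Of 45 PDGF, IGF, EGF, HGF and EDA genes, 15 were called higher (1 set apart) and 9 lower. Met, the HGF receptor gene of migrating muscle precursors, was at 46.9 ± 22.8 against 7.08 ± 2.31 CPM, Nrg1 at 20.4 ± 13.2 against 5.81 ± 1.39 CPM and Pdgfc at 138 ± 20.04 against 44.7 ± 14.6 CPM. With the epithelial marker level as a covariate Nrg1 was no longer called (log2 difference 0.08, against 1.81). Because that covariate separates the glands by itself, nothing is read from this loss. Igf1 was the other way, at 878, 715, 988 and 711 CPM in SMG and at 161, 274, 198 and 146 CPM in PG libraries, with no overlap (log2 difference -2.08 ± 0.51, adjusted p = 0.00959). The neurotrophin genes Ntf5 and Ntf3 went opposite ways, Ntf5 at 8.08 ± 3.63 CPM in PG against 1.23 ± 0.436 in SMG, with 43.7% of its excess expected from epithelial RNA, and Ntf3 at 25 ± 3.06 against 63.0 ± 1.32 CPM. In that list 6 of 23 genes were called higher (1 set apart) and 3 lower.

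Guidance cues followed the same split. Of 48 axon guidance genes 19 were called higher (2 set apart) and 3 lower. Ntn1, the netrin ligand, was at 31.7 ± 16.6 against 2.97 ± 1.08 CPM, with 30.6% of its excess expected from epithelial RNA. Its receptor gene Dcc was at 18.4 ± 4.75 against 2.45 ± 1.46 CPM, while the repulsive netrin receptor gene Unc5c was at 7.75 ± 1.76 against 59.7 ± 4.13 CPM (log2 difference -2.95 ± 0.18, adjusted p = 4e-08). Sema3e was at 2.72, 16.7, 8.16 and 17.4 CPM in PG libraries, the lowest in PG mesenchyme 1, and at 0.777 ± 0.424 CPM in SMG. Of 22 ephrin and Eph genes 9 were called higher (1 set apart) and 5 lower. Efna5 was at 114, 76.1, 103 and 91.5 CPM in PG and at 14.4, 17.4, 19 and 12.7 CPM in SMG libraries, which did not overlap (log2 difference 2.59 ± 0.14, adjusted p = 1.67e-08). The receptor genes Epha4 and Epha6 were higher too, at 269 ± 61.1 against 85.4 ± 6.30 CPM and at 14.2 ± 1.03 against 0.536 ± 0.31 CPM, and the ligand gene Efnb3 was lower, at 63.5 ± 14 against 137 ± 15.1 CPM. Among 27 chemokine genes 7 were called higher and 2 lower. Cxcl13 was higher in SMG, at 9.24 ± 1.79 against 2.05 ± 0.691 CPM. Cxcl12, a chemokine abundant in stroma, was at 534 ± 102 CPM in PG and 374 ± 35.8 in SMG mesenchyme and did not pass (adjusted p = 0.331), although it passed in a fit of the 8 mesenchyme libraries alone (0.0273) and without PG mesenchyme 1 and PG epithelium 2 (0.00184).

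The collagen and elastic fibre genes gave 15 of 44 called higher and 4 lower, and their summed level was 11651 to 16373 CPM in PG against 8703 to 10372 CPM in SMG libraries, with no overlap. Col3a1, the most abundant of the list by CPM, was at 4259 ± 902 CPM in PG and 3934 ± 406 in SMG mesenchyme and did not pass (adjusted p = 0.946). Col1a1, a chain of type I collagen, was at 2261 ± 511 against 782 ± 169 CPM and did not overlap, but did not pass either (log2 difference 1.53 ± 0.59, adjusted p = 0.0799), though it did in the 8 mesenchyme libraries alone (0.000228). Col6a2, a chain of type VI collagen, was called higher at 342 ± 43.3 against 66.6 ± 7.62 CPM (log2 difference 2.36 ± 0.63, adjusted p = 0.0157). Col6a6 was at 18.4 ± 3.54 against 0.533 ± 0.22 CPM and Col14a1 at 25.9 ± 13.5 against 1.91 ± 0.741 CPM. Lox, which cross-links collagen and elastin, was at 454, 302, 339 and 281 CPM in PG and at 45.9, 33.9, 26.4 and 51.6 CPM in SMG libraries, with no overlap (log2 difference 3.12 ± 0.69, adjusted p = 0.00521). Col23a1, a membrane-bound collagen, was lower in PG, at 50.5 ± 12.7 against 181 ± 19.8 CPM. Of 59 proteoglycan and matricellular genes 24 were called higher (2 set apart) and 8 lower. Dcn, which encodes the abundant proteoglycan decorin, was at 804 ± 114 against 170 ± 57.2 CPM (adjusted p = 0.031). It also passed in the 8 mesenchyme libraries alone. Its call was lost without any 1 of 6 libraries, PG mesenchyme 1, 2 or 3 or SMG mesenchyme 1, 2 or 3 (adjusted p = 0.0505 to 0.0892), and without the low-count filter (0.0796). Smoc2, a secreted calcium-binding matrix protein, was at 598, 571, 538 and 469 CPM in PG and at 17.8, 6.49, 9.57 and 32.1 CPM in SMG libraries, far apart (log2 difference 5.04 ± 0.45, adjusted p = 5.68e-06). The small leucine-rich proteoglycan genes Kera and Fmod and the tendon gene Thbs4 were higher in PG mesenchyme, Kera at 263 ± 26.4 against 14.8 ± 4.31 CPM, Fmod at 6.33 ± 1.20 against 0.221 ± 0.129 CPM with 43.1% of its excess expected from epithelial RNA, and Thbs4 at 23.1 ± 7.04 against 1.88 ± 0.787 CPM.

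Of 32 basement membrane genes 12 were called higher, 7 of them set apart, and 3 lower. After the expected epithelial counts were subtracted, 6 genes of the list were called higher. Lama1, the early laminin alpha chain gene, was at 106, 120, 118 and 97.3 CPM in SMG and at 10.6, 6.65, 14.5 and 9.97 CPM in PG libraries, with no overlap (log2 difference -3.40 ± 0.39, adjusted p = 3.58e-05), and Lamb1 was at 741 ± 143 CPM in SMG against 225 ± 52.6 in PG mesenchyme. In the protease list 8 of 39 genes were called in each direction, where 15.3% of all genes were called higher and 9.43% lower. Mmp14 was at 365 ± 20.8 against 183 ± 12 CPM and Mmp16 at 105 ± 14.6 against 41.8 ± 5.49 CPM, while Adamts19 was at 10.2 ± 3.70 against 36.5 ± 6.11 CPM. Of 55 adhesion genes 27 were called higher (3 set apart) and 4 lower. Cdh13 was at 26.4 ± 10.2 against 1.78 ± 0.727 CPM, and N-cadherin, Cdh2, was lower at 130 ± 28.3 against 268 ± 58.8 CPM. Gjb2, a gap junction gene, was set apart at 51.4% of its excess, with a log2 difference of 8.54, and 10.10 without SMG mesenchyme 2. Cdh11, the common mesenchymal cadherin, did not pass (798 ± 82.1 and 826 ± 47.8 CPM).

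Skeletal muscle genes were the list with the largest share called. Of 33 tested, 31 were called higher in PG mesenchyme and none lower, with a median log2 difference of 3.48, and 31 were called without PG mesenchyme 1. The summed level of the 34 markers was 1938 to 3755 CPM in PG and 161 to 466 CPM in SMG libraries, with PG mesenchyme 1 the highest. Des, the muscle intermediate filament gene, was at 120, 103, 86.3 and 66.3 CPM in PG and at 11.2, 6.15, 7.85 and 12.9 CPM in SMG libraries (log2 difference 3.30 ± 0.25, adjusted p = 5.19e-07). The perinatal myosin gene Myh8 was at 48.6 ± 23.9 against 1.38 ± 0.881 CPM. No muscle marker was at 0 in a PG library, and up to 2 were at 0 in a SMG library. The part of muscle RNA in the differences of Acta1, Chodl, Met and Fgfr4, which muscle cells and their precursors also express, was not tested. Tendon and joint genes gave 9 of 14 higher and 1 lower (median 1.89), and bone genes 9 of 14 higher and 2 lower (median 1.47). Runx2, the early bone factor, was at 10.8, 30.9, 52.0 and 51.5 CPM in PG and at 8.46, 13.4, 7.54 and 10.2 CPM in SMG libraries, so that PG mesenchyme 1 lay within the SMG range (log2 difference 1.87 ± 0.44, adjusted p = 0.00603). Alpl was at 19.6 ± 10.03 against 3.70 ± 1.77 CPM.

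Cartilage genes did not move as 1 group. Of 17 tested, 4 were called lower and 2 higher. Acan, given above, and Col9a1 were lower, Col9a1 at 95.2, 111, 65.7 and 94.0 CPM in SMG and at 5.88, 2.91, 4.54 and 4.07 CPM in PG libraries (log2 difference -4.40 ± 0.35, adjusted p = 1.51e-06). Col2a1, the main cartilage collagen gene, was at 102 ± 15.8 CPM in PG and 126 ± 32.8 in SMG mesenchyme and did not pass (adjusted p = 0.22). Sox6 was higher, at 8.25 ± 2.40 against 1.95 ± 0.754 CPM, with 48.0% of its excess expected from epithelial RNA. Sox9, which both cartilage and gland epithelium express, was called higher and set apart, with 90.5 CPM in PG mesenchyme 1 and 34.1 to 39.6 CPM in the other PG libraries against 17.6 ± 5.42 in SMG. After subtraction of the expected epithelial counts its log2 difference was -0.38 (adjusted p = 0.737).

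Few markers of other cell types passed, but the summed levels of several of these lists separated the glands. Of 25 endothelial markers 2 were called in each direction, with summed levels of 740 to 867 CPM in PG and 910 to 1149 CPM in SMG libraries. Kdr, the VEGF receptor gene, was at 93.5 ± 11.4 and 126 ± 19.96 CPM and did not pass (adjusted p = 0.66), though it did in the 8 mesenchyme libraries alone (0.0185). Of 22 macrophage markers 2 were called higher, among them Ptprc at 10.6 ± 2.09 against 2.73 ± 1.38 CPM, and their sum was 153 to 186 CPM in PG and 89.5 to 140 CPM in SMG libraries. Schwann precursor and crest markers gave 2 of 20 in each direction (1 of the higher set apart). Their sum was 264 to 363 CPM in PG and 368 to 623 CPM in SMG libraries, with SMG mesenchyme 3 the highest. The glial genes Sox10 and Cdh19 were lower in PG mesenchyme, at 10.5 ± 4.47 against 28.3 ± 15.3 CPM and at 3.46 ± 1.49 against 14.5 ± 2.79 CPM. Among 22 neuron markers 3 were called higher and 4 lower, with a median of 0.87. The sum of the neuron list was 478 to 1074 CPM in PG, highest in PG mesenchyme 1, and 251 to 337 CPM in SMG libraries. Of 14 smooth muscle and pericyte markers 3 were higher and 1 lower, and their sum was 594 to 791 CPM in PG and 286 to 409 CPM in SMG libraries. The largest differences of that list were those of Des, which the skeletal muscle list also holds, and Acta2. Its median was 0.17. The endothelial, macrophage, neuron, Schwann and smooth muscle sums did not overlap between the glands. Sums of lists of other kinds did not overlap either, such as forkhead genes (690 to 757 CPM in PG, 803 to 902 in SMG) and cholesterol synthesis genes (2545 to 3001 and 1802 to 2162 CPM). Those of hedgehog and basement membrane genes overlapped. The share over all lists was not worked out, so nothing is read from the separation. The part of these cell types in the results was not tested. Embryonic beta-globin, Hbb-y, ran from 1198 to 6369 CPM in PG and from 2711 to 4340 CPM in SMG libraries, and of 15 erythroid markers 1 was called lower. The list of mesenchymal identity gave 11 of 35 higher and 4 lower, and that of early-stage genes 4 of 21 higher (1 set apart) and 3 lower. None of 6 sex-linked markers was called. The stress and immediate early list gave 2 of 26 higher (1 set apart) and none lower.

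**Figure D4:**
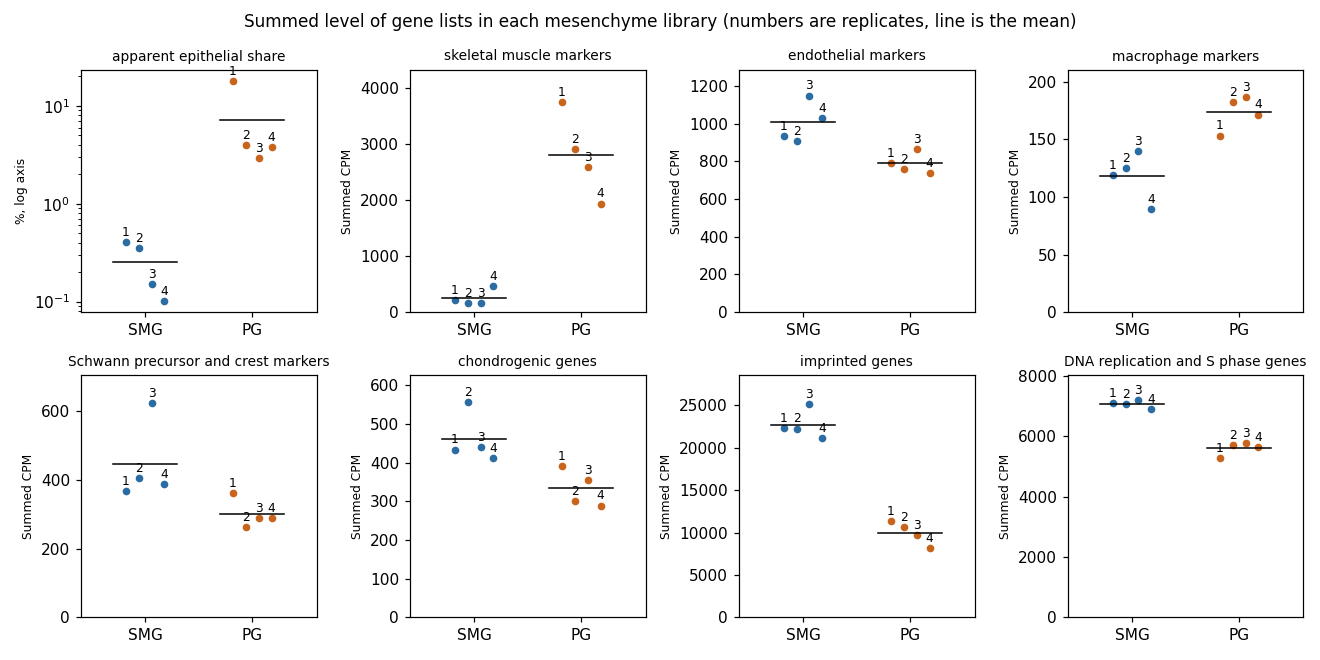
Apparent epithelial share (percent, log axis) and summed CPM of 7 gene lists (linear axes from 0) in each of the 8 mesenchyme libraries, with the replicate number beside each point and a line at the group mean. The groups do not overlap in any panel, though narrowly for Schwann precursor and crest markers (363 CPM and below in PG against 368 and above in SMG). Sums of some lists not drawn, such as forkhead genes, do not overlap either. The epithelial share is 2.91% and above against 0.402% and below, and the muscle sum 1938 CPM and above against 466 and below. Replicate 1 of PG mesenchyme is the highest library for these 2.

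Imprinted genes, which are expressed from 1 parental copy and many of which regulate fetal growth, were lower in PG mesenchyme as a group. Of 37 tested, 21 were called lower and 2 higher, with a median log2 difference of -0.82, where 9.43% of all genes were called lower. Their summed level was 8143 to 11316 CPM in PG and 21091 to 25120 CPM in SMG libraries. Cdkn1c, the maternally expressed inhibitor of cyclin-dependent kinases, was at 6327, 6195, 7096 and 6006 CPM in SMG and at 1965, 1358, 1112 and 974 CPM in PG libraries. The 2 ranges were far apart, and Cdkn1c lost more CPM than any other gene called lower (log2 difference -2.24 ± 0.18, adjusted p = 1.01e-06). Peg3 was at 3155 ± 637 CPM in SMG against 589 ± 119 in PG mesenchyme, the Notch family member Dlk1 at 2012 ± 163 against 277 ± 119 CPM, and Mest at 2539 ± 182 against 1172 ± 99.0 CPM. Plagl1, a zinc-finger factor of the imprinted network, was at 682 ± 104 CPM in SMG against 141 ± 30.7 in PG mesenchyme, Zim1 at 123 ± 33.2 against 10.004 ± 4.86 CPM and Phlda2 at 18.9 ± 2.12 against 1.47 ± 0.426 CPM. Sgce was 1 of the 2 called higher, by a log2 difference of 0.45 ± 0.11. Neighbouring imprinted genes fell in the same runs, counted among genes tested and not set apart. Dlk1, Meg3, Rtl1 and Rian on chromosome 12 (109452823 to 109661716) and Zim1, Peg3 and Usp29 on chromosome 7 were lower by log2 1 or more. Without PG mesenchyme 1, 22 imprinted genes were called lower.

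Genes of DNA replication were modestly lower in PG mesenchyme. Of 40 tested, 24 were called lower and none higher, yet only 1 by log2 1 or more, and the median was -0.32. Ccne2, a cyclin of S phase entry, was at 151, 139, 139 and 158 CPM in SMG and at 61.2, 73.5, 72.9 and 72.8 CPM in PG libraries, with no overlap (log2 difference -1.07 ± 0.10, adjusted p = 1.84e-06). Ccne1 was at 206 ± 22.4 CPM in SMG against 115 ± 7.81 in PG mesenchyme. Of 52 genes of mitosis and G2/M 9 were called lower and none higher, Top2a at 650 ± 37.1 CPM in SMG against 472 ± 66.8 in PG mesenchyme and Mki67 at 250 ± 23.1 against 191 ± 17.1 CPM. Without PG mesenchyme 1, which was low for Ccne2 and Top2a, 21 replication genes and 6 of the mitosis list were called lower and 2 of the latter higher. Of 25 cholesterol synthesis genes 19 were called higher and none lower, all by less than log2 1 (median 0.52), with Lss at 77.0 ± 5.83 against 46.0 ± 6.81 CPM and Dhcr7 at 82.2 ± 2.62 against 50.9 ± 9.31 CPM. Of 34 glycolysis and hypoxia genes 17 were called higher (3 set apart) and 1 lower (median 0.35), with Ldha at 1103 ± 248 against 500.2 ± 49.6 CPM and the oxygen sensor gene Egln3 at 15 ± 2.51 against 4.59 ± 1.66 CPM. By the change in CPM the leading genes of PG mesenchyme included Actb, Nrep and Serpinh1, a collagen chaperone, at log2 differences of 0.60, 0.92 and 0.62, and those of SMG mesenchyme included Itm2a at -0.99.

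The genes set apart were led by epithelial keratins and by abundant genes with a small excess. Krt5, a keratin of basal epithelium, was at 90.0, 29.1, 23.9 and 44.0 CPM in PG and at 0.335, 0.845, 0.776 and 0.0806 CPM in SMG libraries, and the expected epithelial part was 109% of the excess. Fgfr2, the epithelial receptor for FGF10, was at 104 ± 47.0 against 31.8 ± 6.14 CPM with 72.8% of the excess expected. Eif5a, a general translation factor, was set apart as well, at 1035 ± 83.7 against 846 ± 42.1 CPM with 52.5% of the excess expected. After subtraction of the expected counts, 100 of the 369 genes set apart were still called higher, as were 2429 of the 2523 others.

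The gland difference of the mesenchyme was set beside that of the epithelium, which comes from other libraries. In epithelium 875 genes were higher in PG by log2 1 or more (4.62%) and 384 lower (2.03%). Of the 1378 higher genes of mesenchyme that were not set apart, 284 were also among the 875, which is 20.6% of the former and 32.5% of the latter, and 66 were among the 384. Of the 719 lower genes, 49 (6.82%) were also lower and 51 higher in epithelium. RNA of mesenchyme in the epithelium libraries was not set apart. Dcn was at 38.8 CPM in PG and 3.55 in SMG epithelium and Msx1 at 6.77 and 0.245 CPM. Col3a1 went the other way, at 46.2 and 54.4 CPM. The part of such RNA in the shared genes was not tested. The interaction, which asks whether the gland difference of a gene differs between the layers, was called for 2705 genes (14.3%) and for 17 of 23 leading genes. Those were chosen for their difference in mesenchyme, which is a term of the interaction, so nothing is read from their share. Pou3f3 had a gland difference of 3.43 ± 1.03 in epithelium against 11.07 in mesenchyme (interaction 7.63, adjusted p = 0.0379). Its level in epithelium was low, at 0.819 CPM in PG and 0.0714 in SMG. Pax1 was opposite, at -3.42 ± 1.22 in epithelium, where PG was at 0.882 and SMG at 9.58 CPM (interaction 13.39, adjusted p = 0.000686). Cxcl14 was higher in PG in both layers, with 299 CPM in PG and 0.533 CPM in SMG epithelium, and its interaction was not called (0.40, adjusted p = 0.867). All 11 of these that were higher in SMG mesenchyme had an interaction that was called. Nr5a2, Foxc2 and Klf14 were at 1.02 CPM or less in both epithelia, while Negr1 and Cyp1b1 were higher in PG epithelium, by log2 differences of 2.25 and 2.80.

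**Figure D5:**
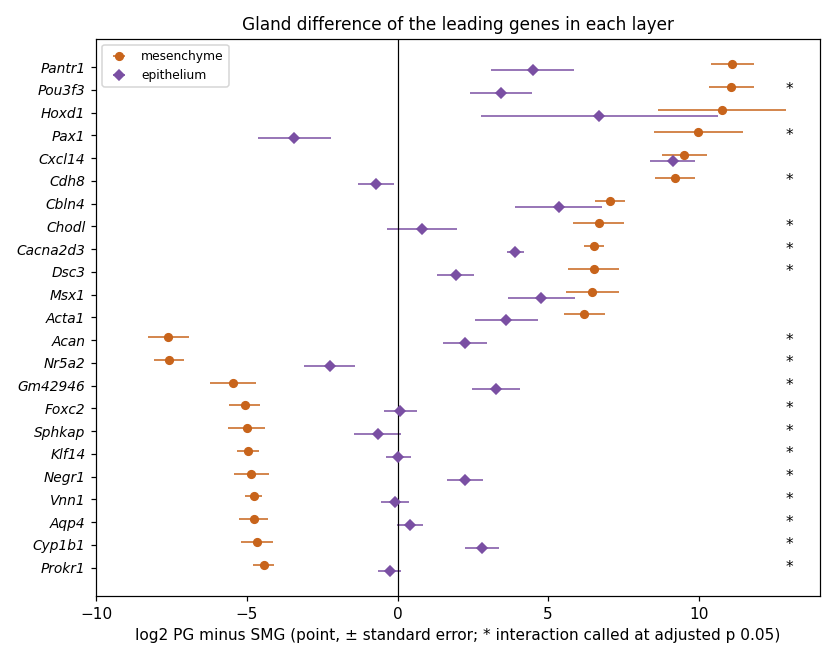
Log2 difference PG minus SMG, with its standard error, of 23 leading genes in mesenchyme (circles) and epithelium (diamonds); a star marks an interaction called at an adjusted p under 0.05. Cxcl14 has nearly the same difference in both layers (9.52 and 9.12), and the 11 genes lower in PG mesenchyme lie near 0 or above it in epithelium, except Nr5a2 at -2.25 and Sphkap at -0.66.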

How the data were processed

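The data were gene counts deposited by the authors, raw whole-number counts per gene for 15 libraries, from TRIzol RNA of RIN above 8.7 made into SMART-Seq v4 and Nextera XT libraries, per the labels. STAR 2.5.2a, the builds GRCm38.p3 and mm10, and the packages limma, edgeR and DESeq2 are listed, with no role, in the submitters' processing notes. Counter, annotation and strand setting: not given in the sources used here. Spike-in rows (92) were left out. Gene coordinates and symbols came from an annotation of GRCm38, which matched 48349 of 48709 gene IDs.

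The fit used edgeR 4.0.16 in R 4.3.3 (TMM scaling, low-count filter with a minimum of 10 counts, robust quasi-likelihood F-test) over all 15 libraries with 1 mean per group and 11 residual degrees of freedom. Calls were made at a Benjamini-Hochberg adjusted p under 0.05. The procedure was tested on simulated data. The apparent epithelial share of a library is the median ratio of epithelial markers of at least 20 CPM in epithelium to the epithelium of the same gland. Named genes were the 12 of each direction with the largest change at a mean of at least 20 CPM without overlap, up to 4 and 2 called members of each of 45 lists at 5 CPM or more with the most abundant uncalled member, 8 genes set apart and 5 of each direction by change in CPM. Not every gene so taken is named, and some are not reported here. The members and lists were chosen with earlier results of these data known. Of 152 genes considered for the text, 30 share exon bases with a gene on the other strand and 7 (Lhx6, Ctnnb1, Col3a1, Top2a, Fgfr2, Xist and Maml2) with one on the same strand. Reads of near-identical family members, such as keratins, actins and myosins, may have been split by the counting.

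Alternatives were DESeq2 1.42.0, median-ratio size factors, no low-count filter, the 8 mesenchyme libraries alone, a replicate block and subtracted epithelial counts. Further ones were a marker covariate, other set-apart thresholds and each of the 8 mesenchyme libraries left out. No epithelium library was left out alone. Leaving out PG mesenchyme 1 and PG epithelium 2 together was chosen after seeing the data.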

Additional observations from a re-analysis of the deposited data

Results flagged for a closer look

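Of 326 groups of 4 libraries examined, 23 (7.06%) had 1 library far from the other 3, where chance gives about 5%. PG mesenchyme 1 was such a library for the apparent epithelial share (18.06%) and the summed epithelial markers (1458 CPM). It was also the high one for Sox9 (90.52 CPM), Aldh1a2 (299.6 CPM), Rdh10 (82.84 CPM), Etv4 (30.76 CPM) and Nog (27.56 CPM). It was the low one for Pou3f3 (67.75 CPM), Cacna2d3 (39.27 CPM), Ebf3 (5.002 CPM), Ccne2 (61.17 CPM) and Top2a (372.5 CPM).

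Other PG libraries stood apart for single genes: replicate 2 for Tbx2 (183.3 CPM), replicate 3 for Cdh19 (1.249 CPM) and replicate 4 for Lgr5 (83.82 CPM). SMG mesenchyme 3 was the high one for the summed Schwann precursor and crest markers (623.4 CPM), Lgr5 (358.4 CPM) and Ccne1 (239.4 CPM) and the low one for Foxp2 (86.0 CPM). SMG mesenchyme 2 stood apart for Epha4 (94.77 CPM) and Gjb2 (0.2689 CPM), and SMG mesenchyme 4 for Nog (2.903 CPM) and Gdf5 (14.8 CPM).

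The gland difference differed between mesenchyme and epithelium, by the interaction term, for 17 of 23 leading genes, which had been chosen for their difference in mesenchyme. On the log2 scale mesenchyme exceeded epithelium by 13.39 for Pax1, 9.914 for Cdh8, 7.634 for Pou3f3, 5.845 for Chodl, 4.573 for Dsc3 and 2.612 for Cacna2d3. The difference of differences was -9.838 for Acan, -8.722 for Gm42946, -7.473 for Cyp1b1, -7.099 for Negr1, -5.331 for Nr5a2, -5.181 for Aqp4 and -5.16 for Foxc2. It was -4.978 for Klf14, -4.691 for Vnn1, -4.345 for Sphkap and -4.184 for Prokr1.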

How the results depend on the processing

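Leaving out 1 mesenchyme library at a time gave 2350 to 2746 genes called higher, 1371 to 1710 lower, 1427 to 1579 higher and 594 to 740 lower by log2 1 or more, and 2185 to 2744 interactions. The interactions also rest on the epithelium libraries, none of which was left out alone. The set-apart count ran from 141, without PG mesenchyme 1, to 446. It was 979 at a threshold of 25% of the excess and 178 at 75%. With the epithelial marker level as a covariate, which in these libraries separates the glands by itself, the calls were 844 higher, 584 lower and 722 higher by log2 1 or more. That covariate also turned Hand2 (1.23), Cdh11 (0.196), Sox9 (-0.0235), Top2a (0.0288) and Xist (5.59), none of them called then. A further 27 named genes lost their call under it with the same sign: Nrg1 (0.08), Gsc (-1.19), Alx4 (-1.07), Foxp2 (-0.72), Tbx2, Gm42946, Fgfr4, Fgf7, Nog, Bambi, Dll1, Met, Ntf5, Ntn1, Efnb3, Cdh2, Ptprc, Cdh19, Sox6, Mki67, Sgce, Lss, Dhcr7, Serpinh1, Itm2a, Fgfr2 and Eif5a. Subtracting epithelial counts turned Sox9 (-0.378) and Cdh11 (0.0419). With 1 library left out the sign also varied for genes that had not passed: Fgfr1 (-0.17 to 0.0112, the latter without SMG mesenchyme 3), Cdh11 (-0.117 to 0.00295), Xist (-1.03 to 0.0522), both highest without PG mesenchyme 1, and Hbb-y (-0.364, without PG mesenchyme 4, to 0.378). Without PG mesenchyme 1 and PG epithelium 2 the log2 differences of Cdh11 and Xist were 0.00336 and 0.052. The cause of these changes was not tested. Replicate numbers did not pair PG with SMG mesenchyme libraries (correlations of same-numbered deviations 0.011, -0.104, 0.132 and 0.074, and 1 of 4 PG libraries correlating best with its own number). Whether the numbers pair epithelium with mesenchyme of the same gland was not examined, and the interaction treats those libraries as independent. The fit with the replicate block called 2894 genes higher and 1795 lower, 1554 and 682 by log2 1 or more, and 2489 interactions, and Aldh1a2 was the 1 named gene whose call it ended (adjusted p = 0.0682). Depth limits genes with few counts in 1 gland, whose ratios have wide counting intervals.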
